A study of Mus musculus with 8 samples.

Results

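The 10 genes described here are glucocorticoid and stress-responsive genes of the mouse hippocampus: Fkbp5, Tsc22d3, Sgk1, Errfi1, Nfkbia, Cebpd, Cebpb, Zbtb16, Klf9 and Plin4. They were picked by gene symbol from a table of 19558 genes, and the estimated counts of their 39 transcripts were summed per gene. All 10 were found, each under 1 gene identifier, and all 10 were among the 15481 genes that passed the filter on low counts. Messenger RNA was sequenced from 8 mice. The KU55933 group held 4 wild-type C57BL/6 KP mice of postnatal day 40 that were anesthetized and given KU55933, a blocker of the DNA-damage kinase ATM, through the nostrils, with 7.5 mg/kg as the stated dose. The vehicle group held 4 mice of the same strain, genotype and age that were anesthetized and given 4% DMSO in saline by the same route. The labels give 7.5 mg/kg for the vehicle mice as well, without saying what it refers to there. Both groups thus shared anesthesia and nasal dosing, and how long after dosing the tissue was taken is not stated in the labels. Library totals were 34190440 to 37499003 estimated counts in the KU55933 group and 40586998 to 46630341 in the vehicle group. Mitochondrially encoded mRNAs took 5.08% to 5.48% of the counts in KU55933 and 4.36% to 4.77% in vehicle, without overlap, and the part of this in the results was not tested.

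Glucocorticoids, the adrenal hormones of the stress response, bind the glucocorticoid receptor (Nr3c1) and the mineralocorticoid receptor (Nr3c2), and the hippocampus is rich in both. The bound receptor enters the nucleus and attaches to DNA at glucocorticoid response elements near genes such as Fkbp5, Sgk1, Tsc22d3, Zbtb16, Klf9, Errfi1 and Plin4. Cebpb, Cebpd and Nfkbia also answer to cytokines, cAMP and cell stress, so that the group as a whole reports on more than 1 signal.

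Promoter windows from 250 bases before to 50 bases after the start site were read from RefSeq sequence of build GRCm38.p6, which matched 8 of the 10 genes, all but Cebpd and Zbtb16, in 16 windows. Sgk1, Errfi1 and Cebpb are shown because each holds letters of an element to which a stress-activated factor binds, and because they include 2 of the genes whose levels are followed most closely below. The Sgk1 window lies at chr10:21993640-21993939 on the plus strand, the Errfi1 window at chr4:150854820-150855119 on the plus strand and the Cebpb window at chr2:167688665-167688964 on the plus strand. Capitals mark a full glucocorticoid response element (AGAACA, any 3 bases, then TGTTCT) in Sgk1, a full cAMP response element (TGACGTCA) in Errfi1 and the shorter cAMP element (TGACG, either strand) in Cebpb.
Sgk1: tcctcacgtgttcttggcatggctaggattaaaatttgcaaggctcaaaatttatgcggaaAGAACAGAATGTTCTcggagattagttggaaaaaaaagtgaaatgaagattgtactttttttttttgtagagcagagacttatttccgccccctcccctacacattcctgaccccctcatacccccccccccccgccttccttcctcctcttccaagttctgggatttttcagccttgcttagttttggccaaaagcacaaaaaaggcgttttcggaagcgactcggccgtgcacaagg
Errfi1: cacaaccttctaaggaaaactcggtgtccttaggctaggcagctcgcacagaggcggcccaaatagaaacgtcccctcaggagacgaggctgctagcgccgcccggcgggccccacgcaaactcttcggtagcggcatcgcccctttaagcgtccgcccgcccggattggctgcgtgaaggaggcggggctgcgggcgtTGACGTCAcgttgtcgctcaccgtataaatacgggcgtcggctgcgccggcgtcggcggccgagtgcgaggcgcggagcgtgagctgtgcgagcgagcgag
Cebpb: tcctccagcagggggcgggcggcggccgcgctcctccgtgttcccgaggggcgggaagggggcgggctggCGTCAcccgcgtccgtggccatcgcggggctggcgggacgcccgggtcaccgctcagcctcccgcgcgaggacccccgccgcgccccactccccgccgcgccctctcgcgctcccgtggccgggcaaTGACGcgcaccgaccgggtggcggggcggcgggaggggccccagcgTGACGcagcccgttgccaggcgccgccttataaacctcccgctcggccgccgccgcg
The Sgk1 match, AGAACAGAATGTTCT, began at position -189 from the start site of the window shown. The Errfi1 match began at position -51 from that of its window. Sgk1 and Errfi1 also have windows at other start sites, and none of those held the same element. The full glucocorticoid element was held by 3 of all 32851 windows of the same 300-base length (0.00913%), with both strands searched, and by 1 of the 16, that of Sgk1. A relaxed form (GNACA, any 3 bases, then TGTNC), of which every full element is also a match, was held by 0.475% of all windows and again by 1 of the 16, that of Sgk1. TGACGTCA was held by 1.79% of all windows and by 1 of the 16, that of Errfi1. TGACG, which also lies inside TGACGTCA, was held by 20.8% of all windows and by 5 of the 16 windows of these genes, with 3 matches in Cebpb. The Cebpb window had a GC content of 80.7%, against 66.7% for Errfi1, 46.3% for Sgk1 and a median of 52.7% over all windows. These matches describe letters in these windows and not occupied sites. Sequence outside the windows was not searched, so a gene without a match here may hold such an element elsewhere.

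Cebpd and Cebpb, 2 related transcription factors, were lower in KU55933 hippocampus by 5.38-fold and 4.00-fold in mean level. Errfi1, a feedback inhibitor of the EGF receptor family, was 1.34-fold higher and passed the test by a small margin. The other 7 genes did not pass, and these included Fkbp5, Sgk1 and Tsc22d3, 3 widely used readouts of glucocorticoid action. Cebpb and Errfi1 no longer passed once each library's trend on transcript GC content and length was removed, while Cebpd still passed. With that trend removed, Cebpd did not pass in 5 of the 8 fits that left out 1 library. In this tissue of mixed cells, fewer cells of a type and less RNA per cell cannot be told apart.

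The test was edgeR's quasi-likelihood F test across all genes with Benjamini-Hochberg adjustment, and genes with an adjusted p under 0.05 are said to have passed. Of the 10 genes 3 passed, against a background of 21.6% of all tested genes. Of these 2 were lower, against 14.6% of all genes, and 1 was higher, against 6.92%. The median log2 change was 0.11 over the 10 genes and 0.01 over all genes tested. The levels of 2 of the 10, Cebpd and Cebpb, did not overlap between groups, against 26.7% of all genes. Both were lower in KU55933, as were 15.9% of all genes without overlap, and 10.7% of all genes were higher without overlap. With an offset for transcript GC content and length, 1 of the 10 passed, against a background of 1.97%. It was Cebpd, which was lower, against 1.29% of all genes lower and 0.672% higher. With that offset 3 of the 10 had an unadjusted p under 0.05 (Errfi1, Cebpd and Plin4), against a background of 15.9% of all genes by the same rule. All levels below are normalised CPM (counts scaled to the adjusted size of the library), listed for mice 1 to 4 of each group, and errors of log2 changes are standard errors.

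**Figure D1:**
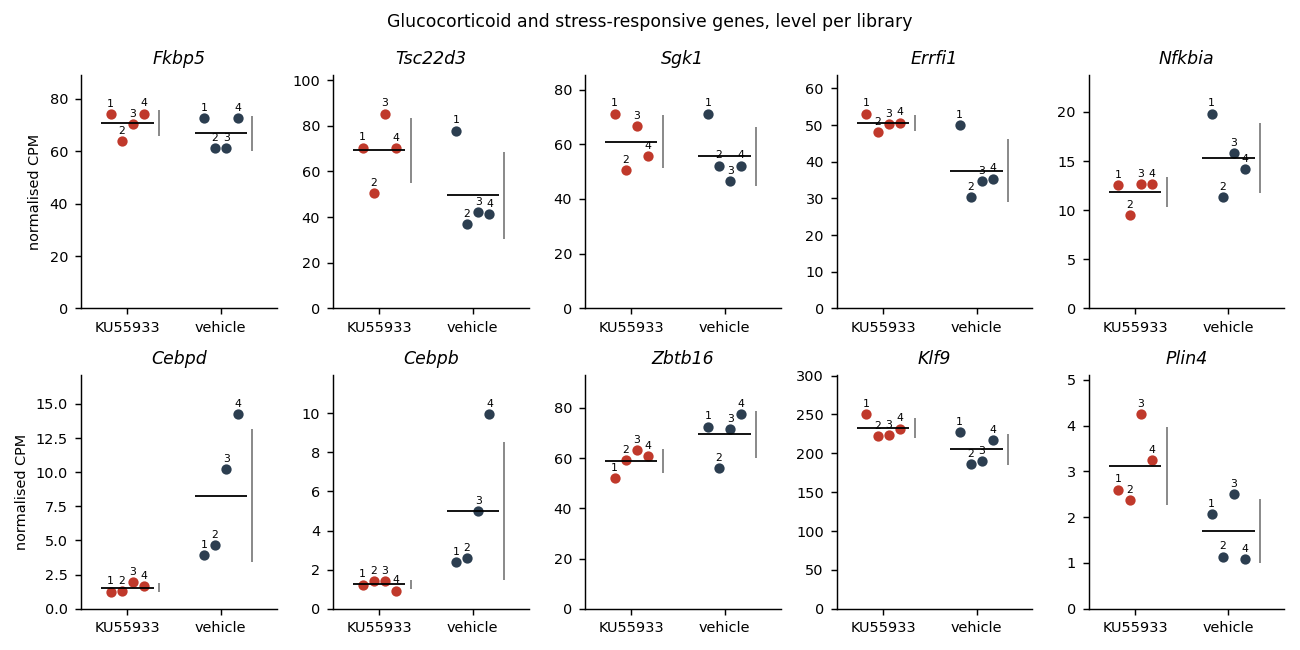
Normalised CPM of each of the 10 genes in every library, with KU55933 at the left of each panel and vehicle at the right; numbers name the mouse, the horizontal line is the group mean and the grey bar is 1 SD on either side of it (n = 4 each). Cebpd and Cebpb stay below 2 CPM in all KU55933 mice and lie above 2 CPM in all vehicle mice, while the groups overlap for the other 8 genes.

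Cebpd encodes C/EBP delta, a transcription factor of the acute-phase response that is made in astrocytes and other glia under inflammation. Its level was 1.26, 1.296, 1.94 and 1.66 CPM in the KU55933 mice, against 3.95, 4.67, 10.2 and 14.3 CPM in the vehicle mice. The groups did not overlap, the KU55933 mice lay close together, and vehicle 3 and 4 stood well above vehicle 1 and 2. Means were 1.54 ± 0.325 CPM in KU55933 and 8.28 ± 4.88 CPM in vehicle (SD, n = 4 each), from 43 to 73 estimated counts a library in KU55933 and 180 to 576 in vehicle. The log2 change was -2.42 ± 0.42, with an adjusted p of 0.00542 in edgeR's test. It kept to between -2.65 and -2.02 with any 1 library left out, and each of those fits passed. Without vehicle 3 and 4 together the change was -1.48 and passed (adjusted p = 0.0109 in edgeR), a choice of libraries made after their values were seen. Without KU55933 1 and 2 together it was -2.19 and did not pass (adjusted p = 0.0784 in edgeR).

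Cebpb encodes C/EBP beta, which pairs with C/EBP delta and acts in inflammatory and cAMP-driven transcription. Its level was 1.23, 1.41, 1.41 and 0.931 CPM in the KU55933 mice, against 2.37, 2.60, 5.01 and 9.96 CPM in the vehicle mice. As for Cebpd, every vehicle mouse lay above every KU55933 mouse, and vehicle 4 was the highest and vehicle 3 the next. Means were 1.24 ± 0.226 CPM in KU55933 and 4.98 ± 3.53 CPM in vehicle (SD, n = 4 each), and the log2 change was -2.00 ± 0.46 (adjusted p = 0.0183 in edgeR). The change was -1.41 without vehicle 4 (adjusted p = 0.011 in edgeR) and -0.99 without vehicle 3 and 4 together (adjusted p = 0.0563 in edgeR). Without KU55933 1 and 2 together it was -2.07 and did not pass (adjusted p = 0.122 in edgeR).

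Transcript GC content went with the size of change across all genes, and so it is given beside each value. The trend was measured on log2 CPM minus the gene's mean over the 8 libraries, so that slopes are relative between libraries. In the KU55933 libraries this value fell with GC content, by 0.117 to 0.348 per 10 percentage points of GC. In the vehicle libraries it climbed, by 0.136 to 0.273. Cebpb transcripts hold 67.2% GC and belong to the most GC-rich of 10 equal bins of genes (58.0% to 71.3%), whose median log2 change was -0.66 and of which 73.9% were lower at the threshold. With the GC and length offset the log2 change of Cebpb was -0.16 ± 0.29 (adjusted p = 0.822 in edgeR), and without vehicle 4 it turned to 0.19.

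Cebpd transcripts hold 51.2% GC, in a bin of genes whose median log2 change was 0.01 and of which 3.23% were lower. The offset left Cebpd at -2.43 ± 0.43 (adjusted p = 0.0365 in edgeR), although 5 of the 8 fits that left out 1 library under the offset did not pass, with adjusted p up to 0.122. The GC content of Cebpd is uneven along its main transcript of 3746 bases. The 804 coding bases hold 70.4% GC and the rest 46.5%. An offset on the GC content of the coding sequence, added after the data were seen, gave -1.76 ± 0.32 for Cebpd (adjusted p = 0.013 in edgeR) and -1.28 ± 0.33 for Cebpb (adjusted p = 0.0436 in edgeR). With it 565 genes were higher and 596 lower (48.7% higher among those that passed), against 1071 higher and 2267 lower (32.1% higher) with no offset. The offset on whole-transcript GC content and length gave 104 higher and 200 lower (34.2% higher). In all, 1161 genes passed with the coding-sequence offset and 304 with the whole-transcript GC and length offset.

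**Figure D2:**
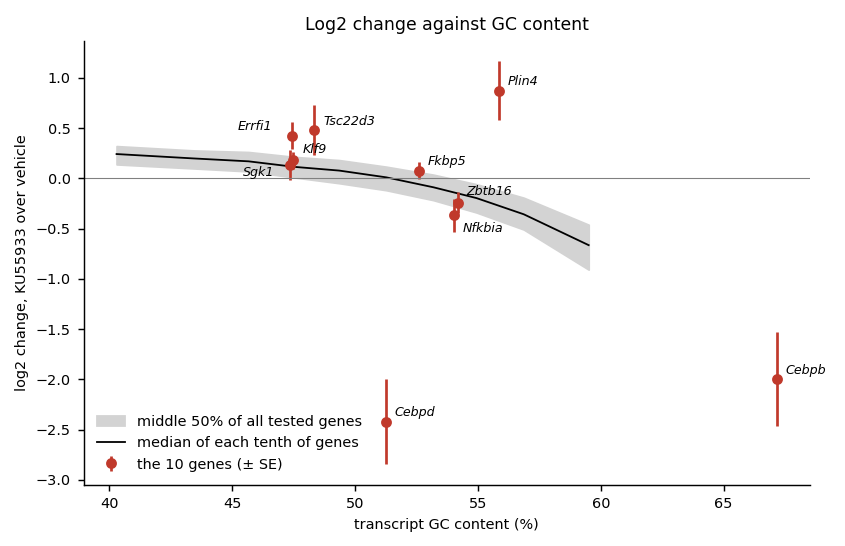
Log2 change, KU55933 over vehicle, of each of the 10 genes (red points, bars are 1 SE on either side) against the GC content of its transcripts in percent; the black line joins the medians of 10 GC bins of all tested genes and the grey band spans the middle 50% of genes in each bin. Cebpd, at 51.2% GC, lies far below a median near 0, and Cebpb, at 67.2% GC, lies beyond the last bin's median GC, where changes are negative.

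**Figure D3:**
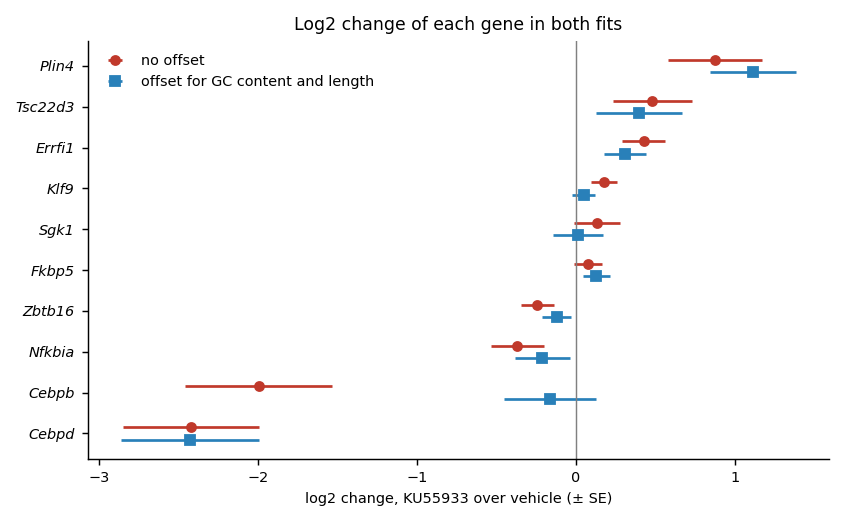
Log2 change of each of the 10 genes, KU55933 over vehicle, in the fit with no offset (red circles) and with the offset for GC content and length (blue squares); bars are 1 SE on either side. Cebpb moves from -2.00 to -0.16 and Cebpd stays at -2.42 and -2.43.

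Fkbp5 encodes FKBP51, a co-chaperone that lowers the affinity of the glucocorticoid receptor for its hormone and is induced by that receptor. Its level was 74.1, 63.9, 70.5 and 74.5 CPM in the KU55933 mice, against 72.8, 61.2, 61.1 and 72.8 CPM in the vehicle mice. Both groups covered nearly the same range. The means were 70.7 ± 4.91 CPM in KU55933 and 67.0 ± 6.72 CPM in vehicle (SD, n = 4 each), and the log2 change was 0.08 ± 0.09 (adjusted p = 0.539 in edgeR). Its sign was negative only with the coding-sequence offset, at -0.04.

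Sgk1 encodes a kinase that keeps ion channels and transporters at the membrane and is induced by both corticosteroid receptors. Its level was 71.2, 50.4, 66.7 and 55.7 CPM in the KU55933 mice, against 71.2, 52.2, 46.6 and 52.2 CPM in the vehicle mice. The groups overlapped, with KU55933 1 and vehicle 1 the highest of each. Its log2 change was 0.13 ± 0.15 (adjusted p = 0.529 in edgeR) and 0.01 with the offset.

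Tsc22d3 encodes GILZ, a leucine zipper protein that carries part of the anti-inflammatory action of glucocorticoids. Its level was 70.5, 50.6, 85.4 and 70.3 CPM in the KU55933 mice, against 77.9, 36.9, 42.0 and 41.2 CPM in the vehicle mice. Vehicle 1 lay at the level of the KU55933 mice, while vehicle 2 to 4 lay below all of them. The means were 69.2 ± 14.3 CPM in KU55933 and 49.5 ± 19.0 CPM in vehicle (SD, n = 4 each), and the log2 change of 0.48 ± 0.25 did not pass (adjusted p = 0.191 in edgeR). Without vehicle 1 it was 0.79 and passed (adjusted p = 0.00662 in edgeR), and with the offset and without vehicle 1 it was 0.73 and did not (adjusted p = 0.0503 in edgeR).

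Vehicle 1 also held the highest level of its group for Errfi1, Nfkbia, Sgk1 and Klf9. Its summed oligodendrocyte markers were 8264 CPM, against 3618 to 5841 CPM in the other vehicle mice and 4429 to 5969 CPM in the KU55933 mice, and their part in these values was not tested.

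Errfi1 encodes MIG6, which binds and silences receptors of the EGF family and is induced by glucocorticoids and by growth factors. Its level was 53.1, 48.0, 50.3 and 50.7 CPM in the KU55933 mice, against 49.9, 30.4, 34.6 and 35.4 CPM in the vehicle mice. The KU55933 mice lay within a narrow range, above 3 of the 4 vehicle mice, and vehicle 1 lay among them. The means were 50.5 ± 2.09 CPM in KU55933 and 37.6 ± 8.53 CPM in vehicle (SD, n = 4 each), and the log2 change was 0.43 ± 0.13 (adjusted p = 0.0451 in edgeR). Errfi1 has 47.4% GC, in a bin of genes with a median log2 change of 0.11. With the offset the change was 0.31 ± 0.13 and did not pass (adjusted p = 0.300 in edgeR). Of the 8 fits that left out 1 library, 7 did not pass, with adjusted p up to 0.122, and that without vehicle 1 did (log2 change 0.60, adjusted p = 0.00113 in edgeR).

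Nfkbia encodes I-kappa-B alpha, which holds NF-kB in the cytoplasm and is induced by NF-kB itself. Its level was 12.6, 9.53, 12.7 and 12.7 CPM in the KU55933 mice, against 19.8, 11.3, 15.8 and 14.2 CPM in the vehicle mice. Vehicle 2 lay below 3 of the KU55933 mice, and vehicle 1 was the highest. The log2 change was -0.37 ± 0.16 and did not pass (adjusted p = 0.129 in edgeR). It was -0.21 with the offset and 0.04 with the coding-sequence offset.

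Zbtb16 encodes PLZF, a zinc finger repressor induced by glucocorticoids and progestins. Its level was 51.9, 59.1, 63.2 and 60.8 CPM in the KU55933 mice, against 72.6, 56.0, 71.6 and 77.6 CPM in the vehicle mice. Vehicle 2 lay among the KU55933 mice and the other 3 vehicle mice lay above them. The log2 change was -0.24 ± 0.10 and did not pass (adjusted p = 0.116 in edgeR), nor with the offset (-0.12). Without vehicle 2 it was -0.33 and passed (adjusted p = 0.037 in edgeR).

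Klf9 encodes a Krüppel-like factor that thyroid hormone and glucocorticoids induce in neurons. Its level was 251, 222, 224 and 232 CPM in the KU55933 mice, against 227, 186, 190 and 217 CPM in the vehicle mice. The groups met between 222 and 227 CPM. The log2 change was 0.18 ± 0.08 and did not pass (adjusted p = 0.140 in edgeR). It was 0.05 with the offset on whole-transcript GC, and 0.49 ± 0.09 with the coding-sequence offset, where it passed (adjusted p = 0.00897 in edgeR). Klf9's 732 coding bases hold 59.2% GC, against 47.5% over its transcripts.

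Plin4 encodes a perilipin that coats small lipid droplets. Its level was 2.60, 2.37, 4.26 and 3.24 CPM in the KU55933 mice, against 2.06, 1.14, 2.50 and 1.09 CPM in the vehicle mice. The groups overlapped by 1 vehicle mouse, vehicle 3, which lay above KU55933 2. The means were 3.12 ± 0.845 CPM in KU55933 and 1.70 ± 0.699 CPM in vehicle (SD, n = 4 each), from 84 to 160 estimated counts a library in KU55933 and 44 to 103 in vehicle. The log2 change was 0.87 ± 0.30 (adjusted p = 0.0570 in edgeR) and 1.11 ± 0.27 with the offset (adjusted p = 0.0693 in edgeR), neither of which passed. The offset for Plin4 used the GC content of its less abundant transcript (55.8%), the one with a sequence. Without vehicle 3 the change was 1.12 and passed with no offset (adjusted p = 0.039 in edgeR). Without vehicle 1 it was 0.99 and passed as well (adjusted p = 0.0496 in edgeR).

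Per transcript length, in TPM (counts scaled to transcript length and library), Klf9 had the highest level of 9 of the genes, with a mean of 118 TPM over the 8 libraries. The order is by the mean over both groups. Next came Tsc22d3 with a mean level of 77.5 TPM, Sgk1 with 56.8 TPM, Fkbp5 with 49.9 TPM, Errfi1 with 35.3 TPM, Zbtb16 with 32.3 TPM and Nfkbia with 24.1 TPM. Cebpb at 4.99 TPM and Cebpd at 3.37 TPM came last. Over all 8 libraries the level of Klf9 ranged between 99.01 and 132 TPM and that of Tsc22d3 between 49.0 and 111 TPM, so that these neighbours in the order overlapped, as did each further pair. Fkbp5 (41.0 to 56.5 TPM) and Errfi1 (23.8 to 41.1 TPM) met only at their ends, and so did Nfkbia (15.6 to 38.5 TPM) and Cebpb (1.48 to 15.8 TPM). Errfi1 lay above Zbtb16 in KU55933 (means 40.5 and 28.7 TPM) and below it in vehicle (means 30.0 and 35.8 TPM). A level for Plin4 is not given, because the sequence used for length covered only the less abundant of its 2 transcripts.

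Of 45343 transcripts tested one by one, 6.76% passed, and of 25 tested among the 39 of the 10 genes 3 passed, all lower, where 5.7% of all tested transcripts were lower and 1.06% higher. They were the main transcript of Cebpd (log2 change -2.48 ± 0.43, adjusted p = 0.0126 in edgeR), the single transcript of Cebpb (-2.01 ± 0.47, adjusted p = 0.0393 in edgeR) and a minor transcript of Zbtb16. The Zbtb16 transcript ENSMUST00000216150, of 2505 bases with a GC content of 58.0%, was at 0.678, 0.836, 2.14 and 1.53 CPM in the KU55933 mice, against 8.67, 4.69, 7.28 and 6.07 CPM in the vehicle mice. The groups did not overlap, and the log2 change was -2.36 ± 0.40 (adjusted p = 0.0117 in edgeR). It passed in each fit that left out 1 library and with a GC and length offset per transcript (-1.72, adjusted p = 0.0418 in edgeR). This transcript has the same coding length, 2019 bases, as the main transcript ENSMUST00000093852. The main one was at 51.7, 57.6, 61.3 and 57.4 CPM in the KU55933 mice, against 66.8, 53.1, 64.7 and 69.9 CPM in the vehicle mice, and did not pass (log2 change -0.16, adjusted p = 0.448 in edgeR). The Cebpb transcript did not pass in 6 of the 8 fits that left out 1 library, and that of Cebpd did not without KU55933 1 or without KU55933 2. With the per-transcript offset Cebpb turned to 0.38 and did not pass.

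Tsc22d3 was counted mainly on 2 transcripts, and the high value of vehicle 1 lay on 1 of them. ENSMUST00000055738 was at 40.01, 23.8, 59.2 and 44.7 CPM in the KU55933 mice, against 56.1, 15.6, 21.1 and 19.5 CPM in the vehicle mice. ENSMUST00000112995 was at 28.7, 24.7, 22.2 and 20.6 CPM in the KU55933 mice, against 19.2, 19.7, 18.5 and 18.5 CPM in the vehicle mice. The first is annotated as protein-coding, and the second as a processed transcript with no coding sequence. The second transcript did not overlap between groups and varied little among vehicle mice, although its log2 change of 0.34 ± 0.12 did not pass (adjusted p = 0.137 in edgeR). How many of all tested transcripts did not overlap between groups was not counted, here or for Zbtb16.

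The counts of some genes were divided unevenly between transcripts. Errfi1's second coding transcript had 337, 361, 0 and 0 estimated counts in the KU55933 mice, against 191, 0, 33 and 0 in the vehicle mice. Its most abundant transcript taken alone did not pass (0.30, adjusted p = 0.168 in edgeR, in a fit over the most abundant transcript of each gene). Plin4's less abundant transcript had 47, 34, 51 and 16 estimated counts in the KU55933 mice, against 0, 0, 48 and 0 in the vehicle mice, and the other had 42, 50, 109 and 99 against 94, 46, 55 and 44. Neither transcript of Plin4 passed alone. Splits between transcripts of a gene are estimates, and the error of the estimate was not part of the test.

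**Figure D4:**
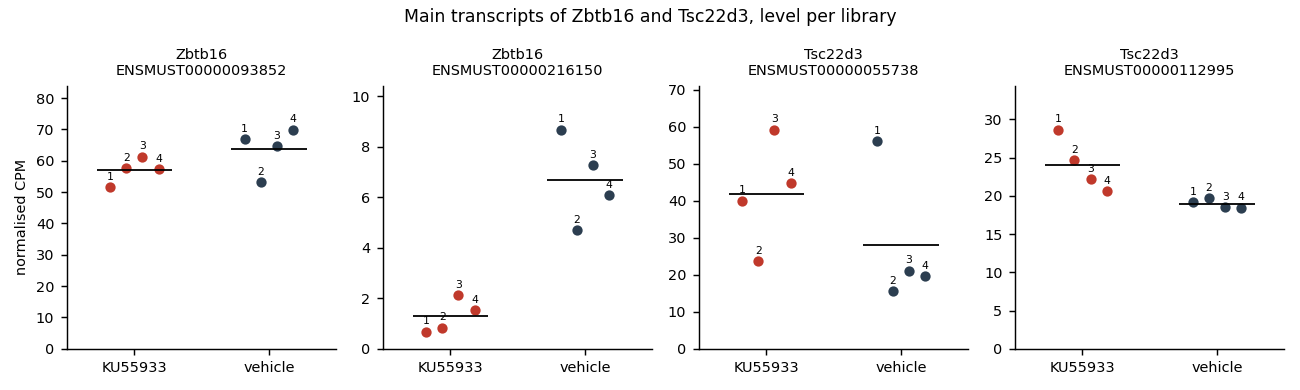
Normalised CPM of 2 Zbtb16 and 2 Tsc22d3 transcripts in every library, KU55933 at the left and vehicle at the right of each panel; numbers name the mouse and lines are group means (n = 4 each). Zbtb16 ENSMUST00000216150 stays between 0.678 and 2.14 CPM in KU55933 and between 4.69 and 8.67 CPM in vehicle, while vehicle 1 stands alone at 56.1 CPM for Tsc22d3 ENSMUST00000055738.

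Within groups, the genes did not all follow the same mice. In the KU55933 group 2 of the 10 genes lay above their own group mean of log2 CPM in mouse 2, and 7 in each of mice 1, 3 and 4. In the vehicle group 8 of the 10 lay above it in mouse 1, none in mouse 2, and 5 in each of mice 3 and 4. Over the 8 libraries, which share 2 group means and the scaling, the deviations from the group mean correlated most for Tsc22d3 with Nfkbia (Pearson's r = 0.90 over 8 libraries), Fkbp5 with Klf9 (0.89), Cebpd with Cebpb (0.88) and Tsc22d3 with Errfi1 (0.88), among 45 pairs. Vehicle 1 was high for Tsc22d3, Sgk1, Errfi1 and Nfkbia and low for Cebpd and Cebpb, and vehicle 4 was high for Cebpd and Cebpb.

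**Figure D5:**
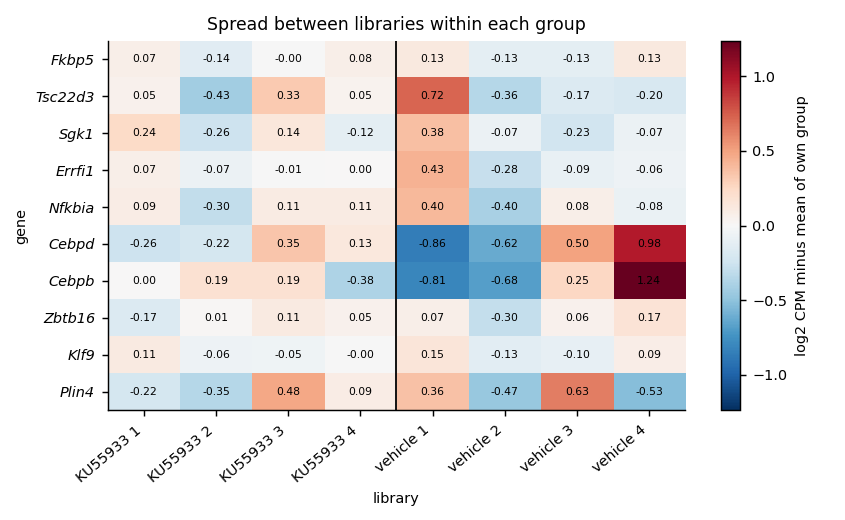
Log2 CPM of each of the 10 genes in each library minus the mean of that library's own group, KU55933 libraries at the left of the line and vehicle libraries at the right; red is above and blue below the group mean, with the value printed in each cell. Cebpd and Cebpb are lowest in vehicle 1 and highest in vehicle 4, and Tsc22d3, Sgk1, Errfi1 and Nfkbia are highest in vehicle 1.

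The genes whose log2 CPM over the 8 libraries was most like that of Cebpd, among 12056 searched, were Begain (Pearson's r = 0.992), Lmtk3 (0.989), Fbxl15 (0.989), Zfp771 (0.988) and Jph4 (0.988). All 5 were lower in KU55933, with log2 changes between -2.30 and -0.60, and hold 60.4% to 65.4% GC. With the offset their changes were 0.28, -0.07, -0.62, -0.74 and 0.13 in the same order. Those most like Fkbp5 were Mettl7a1 (r = 0.936), Fam220a (0.914), Ackr3 (0.907), Bloc1s2 (0.899) and Olfml2b (0.892), and none of them passed. These likenesses rest on 8 libraries that share groups, depth and GC trend.

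Among 12 tested receptors, chaperones and cofactors of corticosteroid signalling, 2 were higher and none lower, against 6.92% and 14.6% of all tested genes. Hsp90aa1, the inducible cytosolic HSP90 that holds the receptor ready for hormone, averaged 1338 ± 139 CPM in KU55933 and 1052 ± 91.1 CPM in vehicle (SD, n = 4 each; log2 change 0.35, adjusted p = 0.0238 in edgeR). Stip1, the adaptor between HSP70 and HSP90, averaged 172 ± 15.5 CPM in KU55933 and 137 ± 17.2 CPM in vehicle (0.33, adjusted p = 0.0408 in edgeR). Neither passed with the offset. Nr3c1 averaged 92.2 ± 9.32 CPM in KU55933 and 82.3 ± 9.88 CPM in vehicle, with a log2 change of 0.16 (adjusted p = 0.257 in edgeR). Nr3c2 averaged 198 ± 21.5 CPM in KU55933 and 227 ± 5.89 CPM in vehicle (-0.20, adjusted p = 0.1103 in edgeR). Its groups did not overlap but nearly met, at 218.58 CPM in KU55933 1 and 218.71 CPM in vehicle 1. Of all genes 15.9% were lower without overlap. Nr3c2 passed as lower with the offset (-0.36, adjusted p = 0.0314 in edgeR). Ptges3 (0.23), Crhr1 (-0.23) and Ncoa2 (0.16), the next by p, did not pass.

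Among 25 other tested genes known to be induced by glucocorticoids, 1 was higher and 5 were lower. Of all tested genes 6.92% were higher and 14.6% lower. Mt1, a metallothionein that binds zinc and copper, averaged 55.5 ± 14.3 CPM in KU55933 and 124 ± 8.30 CPM in vehicle (SD, n = 4 each; log2 change -1.17, adjusted p = 0.00194 in edgeR), and passed with the offset too (-0.73, adjusted p = 0.0281 in edgeR). The related Mt2 averaged 40.6 ± 12.5 CPM in KU55933 and 67.8 ± 7.77 CPM in vehicle (-0.74, adjusted p = 0.0403 in edgeR). Rhob (-0.48), the clock gene Per1 (-0.41) and the mTOR inhibitor Ddit4 (-0.47) were the other 3 lower genes, and Sult1a1, a sulfotransferase, was higher (0.57). Of these 6 genes Mt1 alone passed with the offset. The list's median log2 change was 0.01, equal to that of all genes tested.

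In the families of the 10 genes, Fkbp8 (-0.98) and Fkbp10 (-0.51) were lower and Fkbp14 (0.35) was higher among 11 tested FKBP genes, while Fkbp3 (0.20), Fkbp1b and Fkbp7 did not pass. Of 12 Krüppel-like factors Klf2 (-0.96), Klf15 (-0.43) and Klf16 (-0.22) were lower and Klf6 (0.40) was higher, while Klf11 (-0.33) and Klf12 (0.27) did not pass. With the offset Klf16 turned to 0.52 and passed as higher (adjusted p = 0.0313 in edgeR). Of 13 NF-kB genes Nfkbib (-1.12), a second inhibitor of NF-kB, and the subunit Rela (-0.48) were lower, and Nfkb1, Nfkb2, Relb and Ikbkg did not pass. Tsc22d4 (-0.55) was lower among 3 TSC22 genes. None of 4 other genes listed under C/EBP, 2 SGK genes, 3 perilipins and 4 receptors of the EGF family passed. Unadjusted p in edgeR was under 0.05 for Sgk3 (0.30), Erbb4 (0.52), Erbb2 (-0.43) and Cebpz (0.21), the last listed by its symbol. Beside these family counts, 14.6% of all tested genes were lower and 6.92% higher with no offset. Apart from Klf16 none of the family genes passed with the offset.

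The tissue label was set against marker genes, because the extraction text speaks of hypothalamus and PFC while the labels give hippocampus. Summed hippocampal excitatory markers were 2211 to 2567 CPM in KU55933 and 3148 to 3674 CPM in vehicle, and of the 11 genes 5 were lower and 1 was higher, or 1 lower with the offset. Cortex also expresses some of these genes and no cortical list was used, so that hippocampus and PFC cannot be told apart by this sum. The 8 hypothalamic markers summed to 0.479 to 1.317 CPM in KU55933 and 1.90 to 4.16 CPM in vehicle. The 10 choroid plexus markers summed to 1208 and 1273 CPM in KU55933 1 and 2 and to 82.7 and 66.4 CPM in KU55933 3 and 4, against 57.4 to 122 CPM in vehicle. None of them passed in edgeR's test, and 6 had an unadjusted p under 0.05. Cebpd was at 1.26 and 1.296 CPM in KU55933 1 and 2, and at 1.94 and 1.66 CPM in KU55933 3 and 4. Summed astrocyte markers were 4914 to 6546 CPM in KU55933 and 5041 to 6134 CPM in vehicle, and microglial markers 286 to 355 CPM in KU55933 and 316 to 370 CPM in vehicle. Of 17 immediate early genes 5 were lower and none higher, with summed levels of 473 to 616 CPM in KU55933 and 529 to 903 CPM in vehicle, and with the GC and length offset 1 was lower. Among the other marker lists, 3 of 6 oligodendrocyte precursor genes, 3 of 8 interneuron genes and 1 each of the mural, astrocyte, microglial, erythrocyte, meningeal and endothelial lists were lower, and 2 of 6 subcortical genes and 1 endothelial gene were higher. With the GC and length offset no gene of these lists passed, and the median log2 change of the oligodendrocyte precursor genes was 0.22, against -0.43 with no offset. Of 3 tested hypothalamic markers 2 were lower (1 with the offset), and none of 8 oligodendrocyte markers passed in either fit. Beside the counts of these lists, 14.6% of all tested genes were lower and 6.92% higher, or 1.29% and 0.672% with the offset. The part of these markers in the values of the 10 genes was not tested.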

How the data were processed

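The 8 libraries were poly(A)-selected and strand-specific (TruSeq Stranded mRNA, per the labels' protocols), and groups were taken from the labels, with 4 mice each. The deposited table holds the authors' expected counts (estimated counts), written as whole numbers for each transcript. Salmon 1.4.0, FastQC 0.11.9, DESeq2 1.32.0 and build GRCm39 are listed per the submitters' processing notes. Totals were 34190440 to 46630341 per library. Transcripts without a gene symbol (0.0381% of counts) were kept under their gene identifier. The error of the count estimates was not used.

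Transcript counts were summed per gene and tested with edgeR 4.0.16 (R 4.3.3, limma 3.58.1): filterByExpr, TMM scaling, robust two-sided quasi-likelihood F test, Benjamini-Hochberg adjustment over all 15481 genes and a threshold of 0.05. CPM used TMM-adjusted library sizes and log2 CPM a prior count of 2. Libraries of the same group were compared by chi-square over genes, and none were duplicates. GC content and length came from GENCODE mouse release 21, which matched 99.7% of transcripts. The offset removed a spline fitted in each library on GC content (df 6) and length (df 5). The test was tried on simulated counts. Tables were handled with Python 3.11.15 and pandas 2.3.3.

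The 10 genes and all lists (10 pathway or family lists, 14 marker lists) were chosen with earlier results of these data known. All 10 are named, with Nr3c1, Nr3c2, up to 6 genes of each pathway or family list by smallest p, and the 5 genes most like Fkbp5 and the lowest-p gene of the 10. Alternatives were other scalings, filters, dispersion, DESeq2 1.42.0, limma-voom, a replicate block, offsets, an adjusted p of 0.1, the most abundant transcript alone, and libraries left out.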

Additional observations from a re-analysis of the deposited data

Results flagged for a closer look

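In a group of 4 mice, a value was marked when the share of the group's range taken by its gap to the nearest other mouse was above Dixon's 95% critical value, which chance gives in about 1 of 20 groups. Tsc22d3 in vehicle 1 was at 77.9 CPM, against 36.9 to 42.0 CPM in the other 3 vehicle mice. Its transcript ENSMUST00000055738 in vehicle 1 was at 56.1 CPM, against 15.6 to 21.1 CPM in the other 3. Nfkbia in KU55933 2 was at 9.53 CPM, against 12.6 to 12.7 CPM in the other 3 KU55933 mice.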

How the results depend on the processing

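Of all genes, 3338 passed. The count was 242 with the GC offset, 304 with the GC and length offset, 1161 with the coding-sequence offset, 5085 at an adjusted p of 0.1, 1090 without KU55933 1 and 2, 606 without vehicle 3 and 4, 1597 to 4348 with 1 library left out, and 81 to 711 with 1 left out under the GC and length offset. The coding-sequence offset, leaving out vehicle 3 and 4, and the per-transcript alternatives were chosen after seeing the data.

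Of the 10 genes, 1 was higher. The count was 0 with no filter, either whole-transcript offset, the most abundant transcript, without KU55933 1 and 2, and without vehicle 3 and 4. It was 1 with the coding-sequence offset, where the gene was Klf9 and not Errfi1. It was 2 with DESeq2, limma-voom and an adjusted p of 0.1, 0 to 3 with 1 library left out (3 without vehicle 1: Errfi1, Plin4 and Tsc22d3) and 0 to 1 under the offset. The count of lower genes, 2, was 1 with either whole-transcript offset, with limma-voom and without vehicle 3 and 4, 0 without KU55933 1 and 2, 2 to 3 with 1 library left out and 0 to 1 under the offset. Of the transcripts of the 10 genes, 3 passed, and 1 to 3 with 1 library left out (1 without KU55933 1 or without KU55933 2, that of Zbtb16). The cause was not tested.

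Signs turned for Fkbp5 (-0.044) and Nfkbia (0.043) with the coding-sequence offset. Sgk1 ranged between -0.068 and 0.17 under the offset with 1 library left out (0.28 at most with no offset), and was -0.018 without vehicle 3 and 4. Cebpb was 0.19 under the offset without vehicle 4 (-2.22 at the lowest with 1 library left out and no offset), and its transcript 0.38 with the per-transcript offset.

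Mice with the same number correlated at 0.294, 0.084, 0.0393 and 0.202 in their deviations from group means. Those with different numbers correlated at -0.221 to 0.115. These values do not settle whether the replicate numbers mark pairs, and the main test did not take them as pairs. With the replicate block 4444 genes passed, 2 of the 10 higher (Errfi1 and Plin4) and 3 lower (Cebpd, Cebpb and Nfkbia). With the replicate block and the offset 793 passed, 1 of the 10 lower and 1 higher. Estimated counts were low for Cebpb (33 to 53 a library in KU55933 and 105 to 402 in vehicle). The same holds for Cebpd (43 to 73 in KU55933 and 180 to 576 in vehicle) and Plin4 (84 to 160 in KU55933 and 44 to 103 in vehicle). Among vehicle mice the SD was 3.53 CPM around a mean of 4.98 CPM for Cebpb, and 4.88 CPM around 8.28 CPM for Cebpd. The part of low counts in the precision was not tested.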
